A study of Mus musculus with 13 samples.

Results

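Of 211369 H3K27ac regions made by merging the peaks of 12 libraries of C2C12 cells, 16260 (7.69%) held a peak of every library. Those in which no single peak of any library was 2500 bp or wider are called core regions here, and there were 11658 of them (5.52%). The other 4602 regions with a peak in every library, which hold a peak of 2500 bp or wider, are called broad regions. Core regions were thus chosen by presence in all 12 lists and by peak width, and neither is a result about them.

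C2C12 is a mouse myoblast line that forms myotubes when serum is lowered, and the libraries were chromatin immunoprecipitations with an antibody to H3K27ac. The time course had 6 libraries of wild-type cells. Its times are counted from the switch from growth medium with fetal bovine serum to differentiation medium with horse serum and are -24, 0, 6, 12, 24 and 72 h. The other 6 libraries are from 48 h in differentiation medium. They came from wild-type cells, from a line edited with CRISPR/Cas9 to lack MyoD (Myod1 KO), and from 4 lines with deletions of regions the submitters call hotspots: H1 KO, H3 KO, H23 KO, made by deleting H3 in cells already lacking H2, and H34 KO, made by deleting H3 in cells already lacking H4. A CRISPR control is among the labels but was not analysed here, and unedited wild-type cells were the 48 h reference. Each condition had 1 library, and the sources do not say how many clones stood behind an edited line. No test between conditions was run, and all values describe single libraries.

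H3K27ac is acetylation of lysine 27 of histone H3, which p300 and CBP write and histone deacetylases remove. It marks active promoters and active enhancers. Promoters of widely used genes carry it in most cell states, whereas enhancers carry it more selectively. MyoD, the product of Myod1, is a basic helix-loop-helix factor that binds E-boxes, recruits acetyltransferases and switches on muscle genes when myoblasts leave the cell cycle. Whether a given core region is a promoter or an enhancer was not determined here.

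The lists differed in format, length and rank order before any comparison of conditions. The time course lists had 5 columns with a score of no stated unit, and the 48 h lists had 10 columns with a −log10 p-value. The lists held 55585 (Myod1 KO) to 137960 (H1 KO) peaks covering 18.3 to 81.5 Mb, and read depth was unknown. Values are the authors' own for each peak, and they were only ranked within a list. Over core regions the wild-type library at 48 h stood apart in rank order from the other wild-type libraries, as described with the rank correlations, and its list format could not be told apart from its time point.

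Core regions stood at the end of a distribution with a rise at full sharing. Regions with a peak in 1 library numbered 99283 (47.0%), those in 6 libraries 6140 (2.90%), those in 8 libraries 3815 (1.80%), those in 9 libraries 3745 (1.77%), those in 11 libraries 5419 (2.56%) and those in 12 libraries 16260. The 5419 regions 1 library short of full sharing were not spread evenly over the lists. The missing peak was that of Myod1 KO, the shortest list, in 2341 of them (43.2%), that of 72 h in 1063 (19.6%), that of wild type at 48 h in 617 (11.4%) and that of -24 h in 592 (10.9%). The 12 h library, with the longest list of the time course, was the missing one in 9.

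Core regions were narrower than broad regions, as the rule sets, and close in width to regions in 11 libraries. Their merged width had a median of 1595 bp, with quartiles of 1090 and 2152 bp and a range of 272 to 7828 bp, and the core regions together spanned 19.8 Mb. With peaks within 1 kb merged the median was 2714 bp. In 1565 of them the merged region was 2500 bp or wider although no single peak was, since peaks of different libraries overlapped in a chain. Broad regions had a median width of 4162 bp, and regions in 11 libraries one of 1488 bp. The limit on width separated neighbours in a continuous range. The 3 core regions nearest to it, at chr11:76211114-76213666, chr8:123640071-123642586 and chr11:59475989-59479127, had widest peaks of 2499, 2499 and 2498 bp (coordinates in mm9). The 3 broad regions nearest to it each had a widest peak of 2500 bp.

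Most core regions held bases that every library marked, but these made up a small part of the width. A base covered by a peak of all 12 libraries was found in 10103 of the 11658 (86.7%, 95% Wilson interval 86.0 to 87.3, which covers counting error only). The median length so covered in those regions was 239 bp (quartiles 139 and 399 bp), and the total was 2.996 Mb, or 15.2% of the width of all core regions. The other 1555 core regions (13.3%) were chains in which peaks of different libraries lay side by side. Of these, 1230 gained a base shared by all remaining libraries when 1 library was set aside. For 564 of the 1555 Myod1 KO was such a library, for 348 it was 72 h and for 273 it was 24 h, the lists with the smallest covered length.

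The bases marked in every library often fell into more than 1 stretch. In 6758 core regions they formed 1 stretch, and in 3345 (28.7%) they formed 2 or more. Where there were 2 stretches, in 2514 core regions, the gap between them had a median of 196 bp (quartiles 120 and 317 bp). At the least covered base of that gap a median of 8 libraries still had a peak. In the broad regions 69.3% had 2 or more such stretches. Only 1328 core regions (11.4%) held exactly 1 peak in every library, and 579 (4.97%) held more than 1 in every library.

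The widest stretches marked in every library reached well beyond these medians. The widest was 1512 bp long at chr8:93400355-93401866, within a core region of 2480 bp. The next was 1396 bp long at chr11:55231923-55233318, in a core region of 2425 bp whose core percentile (the rank of a core region's strongest peak among the 11658 in that library, from 0 to 100) was 64.0 in H1 KO and 93.4 in Myod1 KO. The third was 1282 bp long at chr8:81733006-81734287, where the peaks of Myod1 KO covered 1407 bp and those of the 12 h library 4142 bp. In these 3 regions the core percentile was above 60 in all 12 libraries, with a lowest value of 63.2, 64.0 and 61.5.

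Core regions held the largest share of the shortest list, that of Myod1 KO, and the smallest shares of the 4 hotspot lists. In the time course the share of peaks in core regions was, from the earliest library to the latest, 29.2% (28.9 to 29.5), 25.7%, 26.4%, 22.2%, 29.4% and 29.6%. At 48 h the share was 23.3% in wild type and 32.9% (32.5 to 33.3) in Myod1 KO. In the hotspot lines it was 14.3% in H1 KO, 18.5% in H3 KO, 13.5% in H23 KO and 14.6% in H34 KO. The median over the 12 libraries was 24.5%.

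By covered bases the shares varied less. In the time course they were 32.02%, 29.999%, 29.9%, 27.6%, 30.8% and 30.1% in order of time. At 48 h they were 25.7% in wild type, 35.3% in Myod1 KO, 21.2% in H1 KO, 23.8% in H3 KO, 19.7% in H23 KO and 21.1% in H34 KO, with a median of 28.7% over the 12. The covered length itself was lowest in Myod1 KO, at 6.46 Mb, and highest in H23 KO, at 16.02 Mb, within the same 11658 regions. Peaks of Myod1 KO covered 32.7% of the core width and those of H23 KO 81.0%, and the median covered length per region was 484 bp and 1289 bp. The 4602 broad regions held 24.0 to 41.1% of the covered bases.

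**Figure D1:**
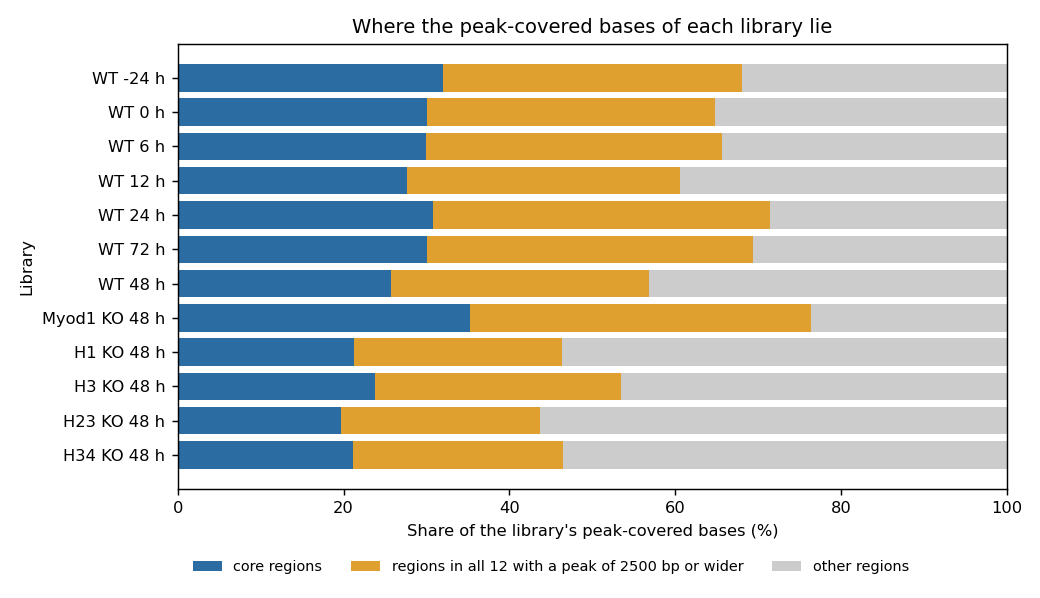
Share of each library's peak-covered bases (horizontal axis, percent) in core regions, in regions of all 12 libraries with a peak of 2500 bp or wider, and elsewhere, with 1 bar per library. The core share lies between 19.7% in H23 KO and 35.3% in Myod1 KO.

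Within each list the strongest peak of a core region mostly ranked high, which the way the regions were chosen and ranked favours. The strongest peak of a core region had a median percentile in its whole list of 81.7, 85.1, 84.5, 87.2, 81.7 and 78.3 in the time course, in order of time. At 48 h it was 79.97 in wild type, 78.1 in Myod1 KO, 91.7 in H1 KO, 88.8 in H3 KO, 90.7 in H23 KO and 90.9 in H34 KO. The median was higher the longer the list, apart from -24 and 24 h, which were level. The share of core regions in the upper 50% of their list was 74.4% in Myod1 KO, 82.9% at 72 h and 98.9% in H23 KO. Requiring a peak in every list, the shortest included, favours strong peaks. The strongest peak of a region was also ranked against single peaks. Only 40.2% (24 h) to 67.1% (H23 KO) of core regions held a single peak in a list. No such percentile is given for other regions, and the part of choice and ranking in these values was not tested.

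Strong peaks outside the shared regions were few. Of the 1000 strongest peaks of a list, 349 (72 h) to 532 (H1 KO) lay in core regions, 391 to 635 in broad regions and 4 to 135 elsewhere. The highest number elsewhere was that of Myod1 KO, with 135, followed by H1 KO with 77, H3 KO with 68 and H34 KO with 67, whereas the 6 h library had 4. Weak members existed in every library as well. The weakest core region stood at percentile 0.0072 of the Myod1 KO list and 3.58 of the 12 h list.

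The rank order of core regions was shared within groups of libraries and less so between them. Spearman's rho of strength over the 11658 core regions is given as a description, since regions of 1 library share its depth, background and base composition. Among the 6 time course libraries rho was 0.56 to 0.84, and with the -24 h library it was 0.81, 0.77, 0.73, 0.63 and 0.56 for the 0, 6, 12, 24 and 72 h libraries. Among the 4 hotspot lines it was 0.66 to 0.77, and between Myod1 KO and those lines 0.59 to 0.64.

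The wild-type library at 48 h had low values with both sets. Its rho was 0.39 to 0.47 with the time course, 0.46 to 0.50 with the hotspot lines and 0.34 with Myod1 KO, the lowest of all pairs. Myod1 KO had 0.42 to 0.47 with the time course, and the hotspot lines 0.43 to 0.53. When covered bases replaced strength, wild type at 48 h had 0.48 to 0.60 with the time course, 0.61 to 0.68 with the hotspot lines and 0.38 with Myod1 KO. By covered bases Myod1 KO had 0.50 to 0.52 with the hotspot lines and 0.44 to 0.45 with the time course. The hotspot lines then had 0.50 to 0.69 with the time course. Wild type at 48 h was thus closer to the hotspot lines than Myod1 KO was, so the block of edited lines rests on strength. Because wild type at 48 h had low values by strength, rank moves of Myod1 KO are also given against each hotspot line. The same holds for their correlation with the time course. The named regions of Myod1 KO against wild type and the comparisons of the hotspot lines rest on the 48 h wild-type library alone.

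**Figure D2:**
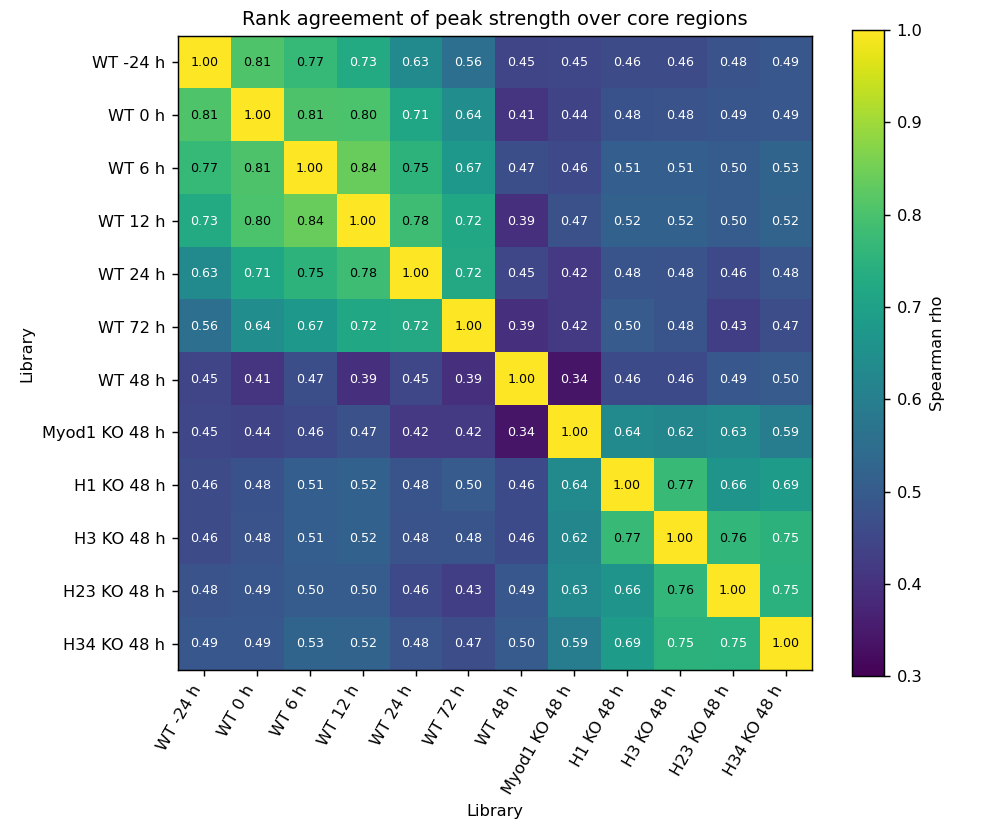
Spearman's rho of peak strength over the 11658 core regions for each pair of the 12 libraries (both axes), with colour and number giving rho. The 6 time course libraries and the 5 edited lines form separate blocks, and wild type at 48 h has 0.34 to 0.50 with all others.

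Few core regions kept 1 place in the order throughout. The core percentile varied over the 12 libraries by a median of 57.8 points and over the 6 time course libraries by 34.9 points. There were 1565 core regions (13.4%) in the upper 50% of core regions in all 12 libraries, 416 (3.57%) in the upper 25% and 101 (0.866%) in the top 10%. At the other end, 1032 (8.85%) stayed in the lower 50% and 104 (0.892%) in the lower 25% in all 12. These counts are among core regions alone and have no share over other regions beside them, so they show no trait particular to core regions.

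The 5 core regions with the highest minimum were among the very strongest in each library. The first lay at chr8:19783755-19786114 with a lowest core percentile of 99.98, and the second at chr11:101502232-101503872 with a lowest of 99.91. The third was at chr17:24305004-24307337, where the lowest was 99.61 in H23 KO. The others were at chr15:75738377-75740114, with a lowest of 99.07 in Myod1 KO, and at chr14:22649596-22652952, with a lowest of 98.94 in H34 KO. Their stretches marked in every library were 511, 479, 291, 695 and 624 bp long at the longest.

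Over the time course some core regions exchanged places while keeping a peak at every time. From the mean core percentile of -24 and 0 h to that of 24 and 72 h, 1200 core regions (10.3%) ranked at least 25 points higher and 1167 (10.0%) at least 25 points lower. These percentiles are among core regions alone, where gains and losses nearly balance by construction, and the counts have no share over all regions beside them. Ranked with all regions in both lists, 12.995% of core regions rose from -24 to 72 h beside 15.2%, and 16.4% fell beside 15.2%. The higher-ranking set had medians of 19.5, 26.999, 41.9, 46.1, 63.3 and 67.98 at -24, 0, 6, 12, 24 and 72 h. The lower-ranking set had medians of 70.1, 65.1, 51.7, 46.1, 29.1 and 21.3. The 4 outer times chose these sets, but 6 and 12 h did not. At those times both medians lay between the early and the late ones, and at 12 h both were 46.1. Sets chosen for opposite ends tend to middle values in any library not used for the choice. These medians therefore cannot tell a gradual change apart from the choice of the sets. The median covered length went from 463 bp at -24 h to 742 bp at 72 h in the first set and from 725 to 372 bp in the second, and from 637 to 530 bp in the other 9291 core regions. Only 75 core regions (0.643%) ranked higher at each successive time and 91 (0.781%) lower, again without a share over all regions.

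By strength the 48 h libraries did not share one order of these sets. In wild type at 48 h the median core percentile was 45.1 in both. In Myod1 KO it was 38.2 in the set that ranked higher late and 45.7 in the other, and in H23 KO 40.7 and 47.3. It was 46.2 and 40.6 in H1 KO, 44.8 and 41.9 in H3 KO, and 41.1 in both sets in H34 KO. By strength wild type at 48 h thus did not place the first set above the second although its time lies between 24 and 72 h. Its list format differs from theirs, and the part of format was not tested. By covered bases the first set had the longer median in each 48 h library. It was 936 bp against 831 bp in wild type, 466 against 444 bp in Myod1 KO and 1346.5 against 1009 bp in H1 KO. In H3, H23 and H34 KO it was 1159 against 995, 1316 against 1233 and 1273.5 against 1153 bp. In the time course the first set was the longer one from 6 h on, and the shorter one at -24 and 0 h.

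The largest single gains in rank went from the bottom of the order to near its top. A core region at chrX:100713448-100717816 stood at core percentiles of 7.17, 18.996, 57.4, 58.9, 93.1 and 92.7 through the 6 times. Its covered length went from 129 bp at -24 h to 2160 bp at 72 h. At 48 h it stood at 71.6 in wild type, 38.2 in Myod1 KO, 86.9 in H1 KO, 72.3 in H3 KO, 25.4 in H23 KO and 32.3 in H34 KO. The wild-type, H1 KO and H3 KO values were thus the high ones at 48 h, and both double deletions and Myod1 KO were low.

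A core region at chr7:74528975-74532495 was at 0.888, 22.2, 36.7, 31.1, 82.7 and 91.4 through the 6 times. It was at 93.6 in wild type at 48 h, 60.1 in H1 KO and between 6.47 and 23.6 in the other 4 lines. A core region at chr17:71142692-71145130 went from 9.40 at the first time to 92.1 by 24 h, and its 48 h values were 86.8 in wild type and 21.7 in Myod1 KO, where the peak covered 128 bp against 2281 bp in wild type. In both, wild type at 48 h ranked with the late times and Myod1 KO with the early ones.

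The other 2 gains did not share one 48 h pattern. A core region at chr4:155208104-155208881 went from 5.83 at -24 h to 87.9 at 72 h and stood at 84.2 in wild type at 48 h and 45.7 in Myod1 KO. A core region at chr5:34528451-34530369 went from 12.485 at -24 h to 90.8 at 24 h, but it stood at 11.3 in wild type at 48 h and 81.9 in Myod1 KO. In the 48 h wild-type library 4 of the 5 thus ranked high and 1 low.

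The largest losses of rank were mirrored in width. A core region at chr17:56441970-56443553 stood at 87.2, 94.3, 75.6, 46.1, 8.22 and 3.38 through the 6 times. Its covered length was 1129 bp at -24 h and 427 bp at 72 h. It was at 8.57 in wild type at 48 h, 30.2 in Myod1 KO and 0.129 to 14.7 in the hotspot lines, so all 6 libraries at 48 h were below the 12 h value. It holds no base covered in all 12 libraries, and it is the last of the 10 core regions of the largest group described with the spacing.

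Among the other losses, the core region at chr19:9972203-9973987 went from 86.7 at -24 h to 7.95 at 72 h, and it was at 3.97 in wild type at 48 h and 59.5 in Myod1 KO. The one at chr3:55403254-55405695 went from 71.4 to 3.38 but stood at 83.3 in wild type at 48 h. The core region at chr5:129526046-129527581 went from 89.2 to 28.8, with 29.9 in wild type at 48 h and 81.9 in Myod1 KO. The last, at chr17:25096541-25097618, went from 81.7 to 3.38, with 47.9 and 74.2. In 4 of the 5 losses Myod1 KO ranked above wild type at 48 h.

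**Figure D3:**
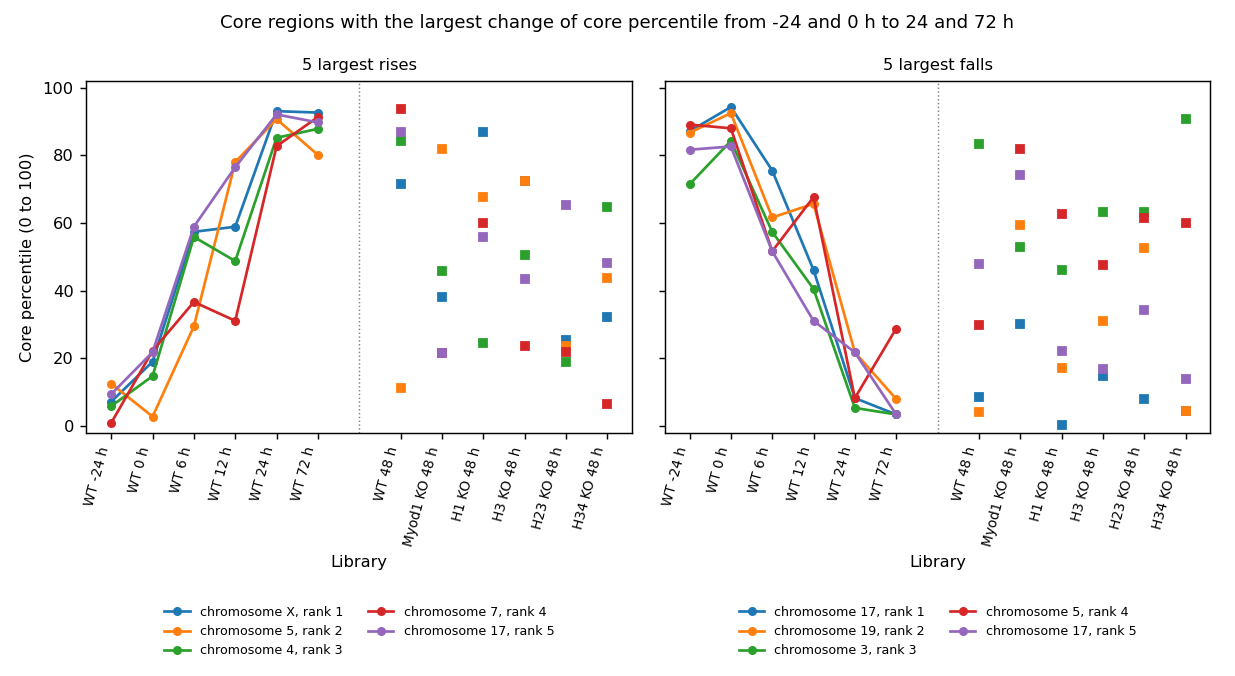
Core percentile (vertical axis, 0 to 100) of the 5 core regions with the largest rise and the 5 with the largest fall between the mean of -24 and 0 h and the mean of 24 and 72 h. Lines join the 6 time course libraries, and squares right of the dotted line are the 6 libraries at 48 h, where the same regions spread from 0.129 to 93.6.

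Across all core regions, ranks at the ends of the time course were compared with a background of all regions with a peak in both lists, ranked together. Between -24 and 72 h, 1515 core regions (12.995%) ranked 25 points or more higher, beside 15.2% of the 25160 regions with a peak in both, and 1916 (16.4%) ranked as much lower, beside 15.2%. Both shares were near the background. Against -24 h, the core regions past 25 points in either direction were 10.3, 13.8, 14.4 and 24.2% for the next 4 times. Downward moves were below their background early, with 414 core regions (3.55%) at 0 h beside 7.01%, 600 (5.15%) at 6 h beside 8.93% and 550 (4.72%) at 12 h beside 9.6%. Upward moves were close to it, with 6.77% beside 7.5%, 8.63% beside 9.05% and 9.69% beside 10.1% in the same order. At 24 h they were 12.47% downward beside 13.4% and 11.7% upward beside 13.2%. These comparisons share the -24 h library. The background, here and below, holds the core regions themselves and regions lacking a peak in other lists. The part of the choice of core regions in these differences was not tested.

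The Myod1 knockout asks what depends on MyoD, and core regions by definition kept a peak without it. Against wild type at 48 h, 2873 core regions (24.6%) ranked 25 points or more higher in Myod1 KO, beside 20.2% of the 23608 regions with a peak in both lists. Another 2122 (18.2%) ranked as much lower, beside 19.5%. Higher ranks thus made up 57.5% of the 4995 moves, and 50.4% when percentiles were taken among core regions alone, where gains and losses nearly balance by construction. The 11658 core regions are themselves among the 23608. They also had to hold a peak in the hotspot lists, which by strength ranked more like Myod1 KO than like wild type. The part of that choice in the 24.6% and the 57.5% was not tested.

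With a hotspot line in place of wild type the moves were fewer, and most pointed down. Myod1 KO ranked lower by 25 points in 1874 core regions (16.1%, beside 13.5%) against H1 KO, 1699 (14.6%, beside 13.8%) against H3 KO, 1528 (13.1%, beside 13.3%) against H23 KO and 1802 (15.5%, beside 13.6%) against H34 KO. It ranked higher in 1068 (9.16%, beside 13.2%), 1457 (12.498%, beside 14%), 1352 (11.6%, beside 13.3%) and 1378 (11.8%, beside 13.9%). Higher ranks were 36.3 to 46.9% of the moves with these 4 references, against 57.5% with wild type. The references also differ in genotype and list length, and the part of each was not tested.

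The change over time did not line up with the change in the knockout. Over core regions Spearman's rho between the move from -24 to 72 h and that from wild type at 48 h to Myod1 KO was 0.03, 2 comparisons that share no library. With H1, H3, H23 or H34 KO in place of wild type it was -0.07, -0.06, 0.03 and 0.00 (0.0038).

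In the 5 core regions that ranked furthest below wild type in Myod1 KO, the Myod1 KO value was the lowest of the 12. The 48 h wild-type value was the highest in all but the region named last, where 24 h had 92.7. The difference between these 2 libraries is what chose the regions. At chr12:99522005-99522496 the core percentile was 96.5 in wild type at 48 h and 0.467 in Myod1 KO. It was 1.82 to 8.27 in the hotspot lines and 11.8 to 40.7 in the time course. Wild type at 48 h thus stood further from the rest. At chr1:135026479-135027731 the core percentile was 93.4 in wild type and 0.528 in Myod1 KO. It was 38.0 to 80.5 in the hotspot lines and 29.5 to 82.7 in the time course, and here Myod1 KO stood further from the rest. At chr11:101488034-101488894 the core percentile was 96.1 and 1.78, with 50.5 to 89.8 in the hotspot lines. Of the pair on chromosome 16, the region at 10366988 to 10368222 was at 93.9 and 1.78, and that at 8847241 to 8852760 at 92.0 and 0.570, where peaks covered 4488 bp in wild type and 125 bp in the knockout.

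In the 5 core regions that ranked furthest above wild type in the knockout, the 48 h wild-type value was the lowest of the 12 and the Myod1 KO value the highest, and the difference between these 2 libraries is what chose the regions. At chr15:79662712-79665255 it was 0.086 in wild type and 96.8 in Myod1 KO, with 57.3 to 89.8 in the time course and 71.8 to 83.2 in the hotspot lines. At chr19:41986472-41989335 it was 6.12 and 99.1, with 90.7 to 96.9 in the hotspot lines and 44.2 to 88.5 in the time course. The regions at chr11:76015565-76016290, chr15:82728344-82730248 and chr9:26836755-26837661 went from 2.27, 0.339 and 3.97 in wild type to 95.8, 93.4 and 94.7 in Myod1 KO.

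The hotspot deletions were set against wild type at 48 h in the same way. Core regions that ranked 25 points or more higher numbered 2375 (20.4%, beside 14.5% of regions in both lists) in H1 KO, 2366 (20.3%, beside 14.9%) in H3 KO, 2125 (18.2%, beside 14.3%) in H23 KO and 2229 (19.1%, beside 14.2%) in H34 KO. Those that ranked lower numbered 947 (8.12%, beside 14.7%), 1243 (10.7%, beside 15.1%), 1012 (8.68%, beside 14.4%) and 857 (7.35%, beside 13.9%). Higher ranks were 71.5, 65.6, 67.7 and 72.2% of the moves in that order. With percentiles among core regions alone they were 50.04, 49.5, 49.7 and 49.9%, a balance that this ranking sets by construction. With covered bases in place of strength the moves in either direction were fewer, 1595 instead of 3322 in H1 KO, 2061 instead of 3609 in H3 KO, 1685 instead of 3137 in H23 KO and 1634 instead of 3086 in H34 KO. The 4 comparisons share the wild-type library and are not independent. Core regions also had to hold a peak in the other edited lists, which by strength ranked more like each line than wild type did. Regions of the background did not have to, and the part of that choice in these shares was not tested.

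Core regions were found on every assembled chromosome but Y, which had 3 merged regions and no core region, too few to read a share from. Chromosome 11 held most, with 1063 (9.12% of core regions), followed by chromosome 2 with 932 and chromosome 7 with 797, and chromosome X held 215. As a share of a chromosome's merged regions, core regions were 7.51% (7.09 to 7.96) on chromosome 11, 7.20% on chromosome 7 and 6.98% on chromosome 17. The lowest shares were 3.92% (3.59 to 4.27) on chromosome 10, 3.93% on chromosome 15 and 4.003% on chromosome 3. Chromosome X, at 5.44%, was near the 5.52% of all regions. Broad regions were spread differently, with 9.24% of them on chromosome 15, which held 4.51% of core regions.

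Most core regions had no other core region nearby, and a minority lay in small groups. Another core region lay within 5 kb of 4047 of them (34.7%, 33.9 to 35.6). That share was 27.3% for broad regions among themselves and 16.7% for regions in 11 libraries, sets with fewer members, and 93.4% for all 211369 merged regions. At the wider distance commonly used to stitch enhancers, which is given with the processing, the shares were 46.8% (45.9 to 47.7), 41.6% and 25.6%, and 14.2% of core regions had a broad region that near. The 46.8% was 23.9% when peaks within 1 kb were merged first. Joined at the wider distance with broad regions left out, 6203 core regions (53.2%) stood alone, 1794 groups had 2 members, 371 had 3 and 50 had 5 or more.

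The largest group had 10 core regions over 48.1 kb at chr17:56395494-56443553. Its members' median core percentiles over the libraries ran from 11.6 to 82.6. The next had 9 over 51.0 kb at chr6:87787968-87838963, with medians from 14.2 to 97.6. A pair of groups at chr11:68852470-68888142 and chr11:69793163-69843771 had 8 each, with medians from 39.2 to 87.7 and from 30.2 to 91.9. Members of these largest groups thus covered a wide range of ranks, and no comparison with core regions outside a group is given.

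Medians of whole chromosomes were steadier over the wild-type time course than over the hotspot lines, although a single core region ranged over a median of 34.9 points within the time course. Over the 6 time course libraries the median core percentile of a chromosome varied by at most 6.80 points, with a median of 4.36 over the 20 chromosomes that hold core regions. Over the 4 hotspot lines it varied by up to 38.5 points, with a median of 10.4, and more than over the time course on 19 of the 20. Chromosome 19 was the exception, and on chromosome X the ranges were 4.93 and 4.85. The time course lists are 6 points in time of unedited cells in 1 format and the hotspot lines 4 lines at 1 time in the other, so editing, line, format and time cannot be told apart in this comparison. Strength took 463 to 1780 distinct values in a library, so many core regions tie and medians repeat.

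Chromosome X ranked low everywhere. Its median core percentile was 32.6 to 37.4 in the time course, 39.2 in wild type at 48 h, 38.2 in Myod1 KO and 23.8 to 28.7 in the hotspot lines. Chromosome 10 was within 51.2 to 56.7 in the time course and at 62.6 to 76.1 in the hotspot lines. Chromosome 1 was within 47.4 to 51.2 in the time course and at 32.6 to 42.5 in the hotspot lines. On these the 4 hotspot lines lay on 1 side of the whole time course.

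**Figure D4:**
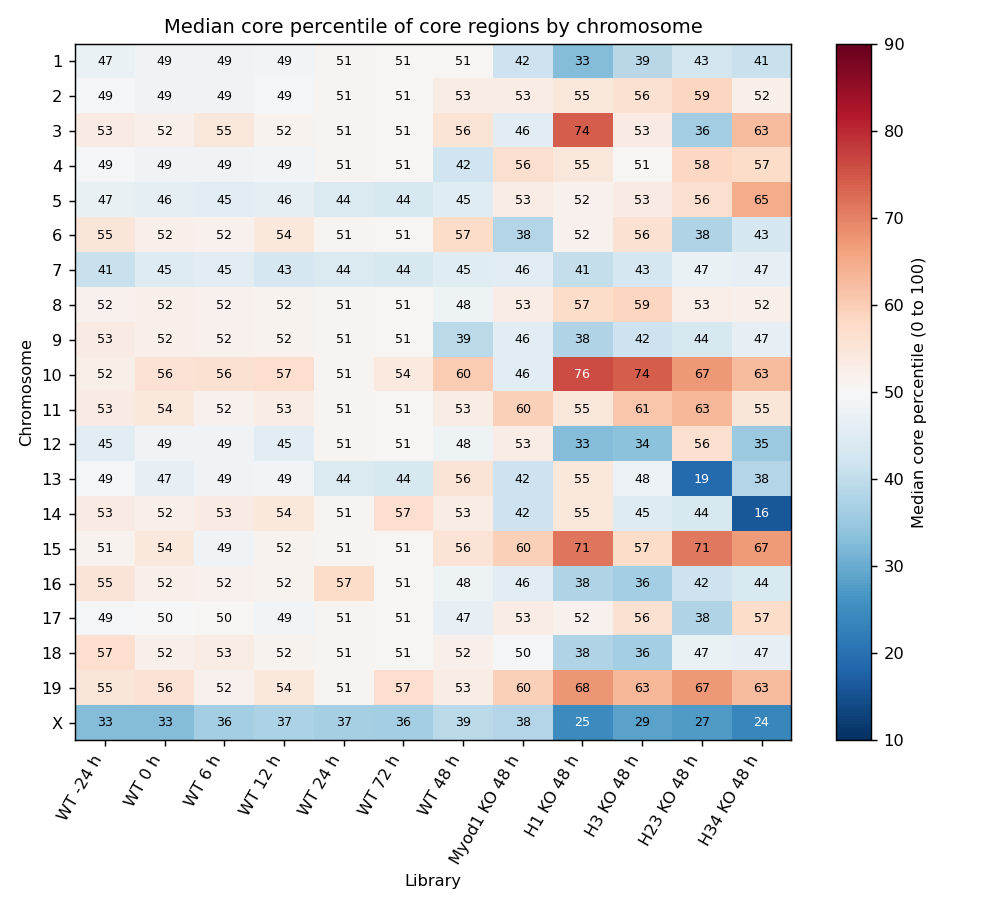
Median core percentile (colour and number, 0 to 100) of the core regions of each chromosome (vertical axis) in each of the 12 libraries (horizontal axis). Along a row the 6 time course values vary by at most 6.80 points, and the lowest cell is chromosome 14 in H34 KO at 16.1.

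A chromosome median lay 20 points or more from the median of its 12 library values in 3 of 240 cases (1.25%), all in hotspot lines. The core regions of chromosome 14 had a median of 16.1 in H34 KO against 52.6 over the libraries. Those of chromosome 13 had 18.8 in H23 KO against 47.2, and those of chromosome 3 had 74.1 in H1 KO against 52.6. By covered bases 1 of the 240 values was past 20 points, that of chromosome 14 in H34 KO, at 22.3 against 47.2. Chromosome 13 in H23 KO was then at 33.6 against 48.4 and chromosome 3 in H1 KO at 64.5 against 50.9. These 2 thus passed 20 points by strength only, with smaller deviations of -14.7 and 13.6 points in the same directions by covered bases. By strength, none of the 120 time course values was past 20 points, and they lay between -6.14 and 8.12. The furthest in Myod1 KO was -13.5, and those of wild type at 48 h lay between -9.43 and 8.29.

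The displacement on chromosome 14 in H34 KO ran through its members. Of the 383 core regions there, 372 (97.1%) ranked below their own median over the other 11 libraries, against 49.1% of all core regions in that line. H34 KO was the lowest of the 12 libraries in 204 of the 383 (53.3%), against 7.51% of all core regions. The quartiles were 5.28 and 32.3 in H34 KO and 30.4 and 80.0 at -24 h, so the upper quartile in H34 KO was near the lower quartile at -24 h. The other 5 libraries at 48 h had medians of 53.1 in wild type, 41.8 in Myod1 KO, 54.6 in H1 KO, 44.8 in H3 KO and 43.6 in H23 KO. Peak-covered bases showed it too, since chromosome 14 held 2.18% of the bases covered within core regions in H34 KO against a median of 3.15%, a log2 ratio of -0.53.

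Chromosome 13 in H23 KO and chromosome 3 in H1 KO were displaced less evenly. On chromosome 13, 408 of 475 core regions (85.9%) ranked below their own median over the other 11 libraries in H23 KO, against 49.8% of all core regions, and H23 KO was the lowest library in 174 (36.6%, against 7.84%). H34 KO stood next lowest there, at a median of 38.2, and the other libraries had 41.8 to 55.5. On chromosome 3, 410 of 527 core regions (77.8%) ranked above their own median in H1 KO, against 49.3% of all, and H1 KO was the highest library in 174 (33.02%, against 8.22%). H23 KO was at the opposite end on chromosome 3, with a median of 36.2. The log2 ratios of covered core bases were -0.24 and 0.19.

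**Figure D5:**
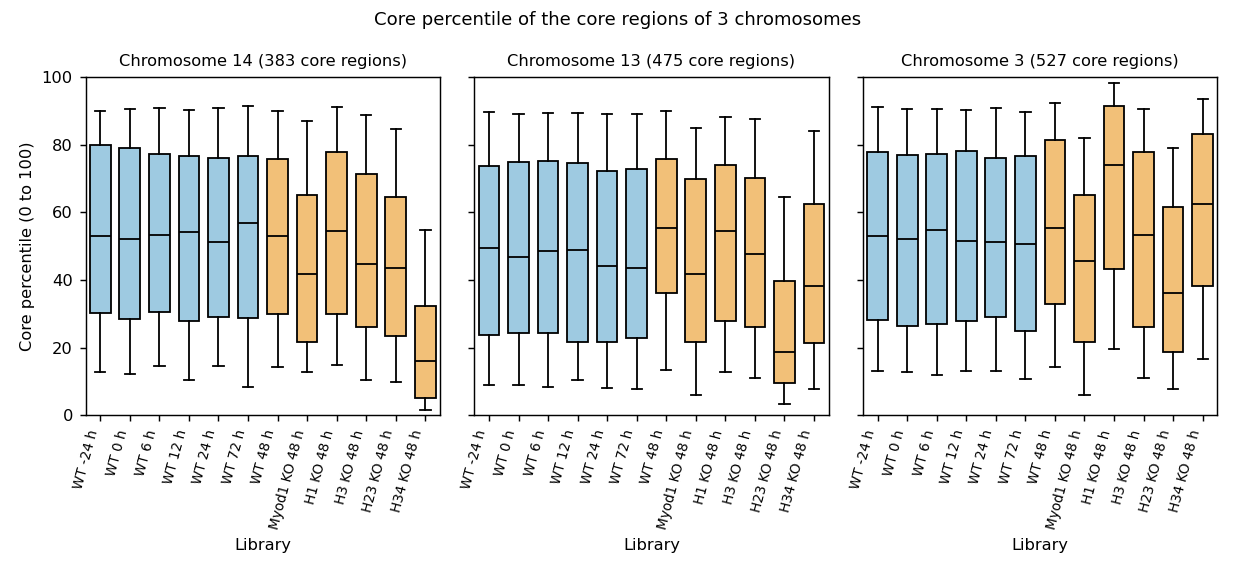
Core percentile (vertical axis, 0 to 100) of the core regions of chromosomes 14, 13 and 3 in each library (horizontal axis), with boxes from the lower to the upper quartile, a line at the median and whiskers at the 10th and 90th percentiles, blue for the time course and orange for 48 h. Chromosome 14 in H34 KO has its upper quartile at 32.3, near the lower quartile of the time course libraries.

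Along the chromosomes the displacement had different extents. In 20 Mb bins of chromosome 14 the H34 KO median was 13.3 to 22.6 in all bins, among them one with 4 core regions. On chromosome 13 the H23 KO median was 12.2 to 17.3 in the 4 bins up to 80 Mb. It was 38.0 at 80 to 100 Mb, against 43.9 in the other 11 libraries, and 35.4 at 100 to 120 Mb, against 48.1. In the last bin, with 2 core regions, it was 34.4 against 34.2. On chromosome 3 the H1 KO median was highest at 80 to 100 Mb, with 86.2 against 57.4 in the other libraries, and lowest at 140 to 160 Mb, with 58.9 against 40.2. The displacement of chromosome 13 was thus smaller beyond 80 Mb, whereas chromosome 14 was low throughout.

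Displaced stretches were also found elsewhere, in 20 Mb bins with at least 20 core regions. Of 1596 bin values, 133 in each library, 44 (2.76%) lay 20 points or more from the median of the 12 libraries. There were none at -24, 0, 6, 12 and 24 h, 1 at 72 h, 3 each in wild type at 48 h and Myod1 KO, 11 in H1 KO, 4 in H3 KO, 10 in H23 KO and 12 in H34 KO. Of the 44, 13 lay on the chromosomes just described in those lines, and 31 were elsewhere, among them 7 in H1 KO, 6 in H23 KO and 7 in H34 KO. In H34 KO the 3 bins of chromosome 5 from 100 to 160 Mb were high, at 67.0, 78.7 and 67.0 against 43.9, 56.3 and 45.5, and on chromosome 6 those from 40 to 80 Mb were low, at 29.6 and 35.2 against 51.5 and 55.8. On chromosome 8 the bin from 80 to 100 Mb, with 115 core regions, was low in 4 of the 6 libraries at 48 h, at 54.4 in wild type, 53.0 in Myod1 KO, 41.7 in H23 KO and 52.2 in H34 KO against 74.97.

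Differences between chromosomes made up a small part of rank moves in the time course and more of them at 48 h. Of the variation in core percentile moves against -24 h, 0.142% (6 h) to 0.342% (0 h) lay between chromosome means. Against wild type at 48 h it was 3.91% in Myod1 KO, 6.02% in H1 KO, 3.85% in H3 KO, 10.3% in H23 KO and 9.42% in H34 KO. For Myod1 KO against H1, H3, H23 and H34 KO, with no wild-type library involved, it was 14.1, 8.32, 6.61 and 8.01%. Each line had 1 library, so a line and its library cannot be told apart here, and the part of either in these displacements was not tested.

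Summits of the 48 h libraries fell near each other in some core regions and far apart in others. The 48 h lists give a summit, the base of highest signal in a peak, and the summits of the strongest peaks of the 6 libraries spanned a median of 255 bp (quartiles 94 and 525 bp). All 6 lay within 100 bp in 26.4% of core regions, and they spanned more than 500 bp in 26.9%. In the 2669 core regions with exactly 1 peak in each 48 h list the median was 137 bp. It was 187 bp where the bases marked in all 12 libraries formed 1 stretch, 351 bp where they formed 2 or more, 553 bp where there were none, and 808 bp in broad regions. Broad regions are wider by the rule, and regions with no such base are chains of peaks side by side. The classes thus differ by definition in how far apart summits can lie. The median distance of a library's summit from the median summit of the 6 was 18 bp in H23 KO, 21.5 bp in H3 KO, 22 bp in H34 KO, 23 bp in H1 KO, 42 bp in Myod1 KO and 43 bp in wild type. The hotspot lines are 4 of the 6 libraries that set this median summit, and the part of that in their smaller distances was not tested.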

How the data were processed

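The submitters' processing notes name MACS2 2.1.0 and the build mm9, and each library has its own peak list. Aligner, filters and cutoffs are not given in the sources used here. The authors deposited for the 6 time course libraries a score without a stated unit. For the 6 libraries at 48 h they deposited a score, the fold enrichment at the summit, −log10 p-values and −log10 q-values. The strength of a peak was the score in the former and −log10 p in the latter, ranked within a list (ties averaged). Peaks of all 12 lists were merged at 1 bp of overlap, and a region took the strength of its strongest peak. Coordinates are in mm9, counted from 1. Groups of core regions were joined within 12.5 kb. Moves between a pair of libraries used percentiles over all regions with a peak in both lists. Shares carry 95% Wilson intervals, which treat neighbouring peaks as independent.

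The members and lists were chosen with earlier results of these data known. Named regions were the 5 (or 3) most extreme by minimum core percentile, by longest stretch covered in all 12, by change over time, by Myod1 KO minus wild type, by group size and by nearness to the width limit. No gene was named from a position. The code was tested on simulated data. Alternatives were other merging, peak cutoffs, equal list lengths, width limits, measures of strength, references and distances, and leaving out each library. Python 3.11.15, numpy 2.4.6, pandas 2.3.3, scipy 1.17.1 and matplotlib 3.10.9 were used.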

Additional observations from a re-analysis of the deposited data

How the results depend on the processing

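There were 125 alternatives over 20 results: of the planned ones 49 moved and 53 stayed the same, and of those chosen after seeing the data (chromosome medians and other 48 h references) 11 moved and 12 stayed the same. No paired analysis was possible because each condition had 1 library. The number of core regions was 9210 to 16260 over the other settings and 11727 to 13791 without 1 library, highest without Myod1 KO. The shares of peaks and of bases in core regions, the median percentile in the list, the median width, the share with a base covered in all 12, the share within the joining distance of another, the highest over the median chromosome share and the chromosome 14 log2 ratio were 29.8%, 30.5%, 85.4, 2714 bp, 83.6%, 23.9%, 1.80 and -0.64 with peaks within 1 kb merged. With the same number of strongest peaks in every list they were 27.1%, 27.5%, 80.5, 1565 bp, 89.96%, 41.9%, 1.90 and -0.57. With stricter peaks (q under 0.001 or a score of at least 5) those that moved were 23.7%, 27.8%, 85.2, 87.6%, 45.7% and -0.53 (the shares of peaks and bases, the percentile, the shares with a common base and within the joining distance, and the log2 ratio). With an overlap of at least 100 bp they were 24.0%, 28.4%, 1553 bp, 1.96 and -0.51 (the shares of peaks and bases, the width, the chromosome share and the log2 ratio). Ranking by width gave a percentile of 79.8, and a distance of 5 kb gave 34.7%. Moves past 33 points numbered 2129 from -24 to 72 h and 2027, 2354, 1922 and 1893 in H1, H3, H23 and H34 KO, and covered bases in place of strength gave 1595, 2061, 1685 and 1634 in these lines. Myod1 KO against H1, H3, H23 and H34 KO gave 2942, 3156, 2880 and 3180 moves. The correlation of moves was 0.0549 with covered bases, 0.0315 with fold, -0.00088 with 0 h for -24 h, -0.0336 with 24 h for 72 h, and -0.0674, -0.0581, 0.0271 and 0.0038 with the hotspot lines for wild type. The summit spread was 137 bp with 1 peak per list and 197 to 240 bp without 1 library. By covered bases the medians of chromosome 14 in H34 KO, 13 in H23 KO and 3 in H1 KO were 22.3, 33.6 and 64.5, and the latter 2 then lay under 20 points from the median of the 12 libraries. Apart from what a setting alters by its construction, the cause of these moves was not tested. Depth is unknown, and what it limits among weak peaks was not tested.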
